A study of Mus musculus with 29 samples.

Results

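The glucose transporter and glycolysis genes described here are 10 genes of glucose uptake, glycolysis and glycogen breakdown in the mouse heart: Slc2a1, Slc2a4, Hk1, Hk2, Pfkm, Pfkp, Pfkfb2, Ldha, Ldhb and Pygm. They were taken from the count table by symbol, and these 10 rows of 20411 genes were followed across 29 hearts, each from 1 BALB/c mouse of wild-type genotype. All mice received an adeno-associated virus by vein, carrying either GFP or REV-ERBα (the product of Nr1d1, a nuclear receptor of the circadian clock) under Tbg, a promoter that works in hepatocytes, so the vector was aimed at the liver and not at the heart. After 10 days the mice were given C26 cells under the skin, a colon carcinoma line used as a model of cancer cachexia, or PBS without tumour cells. The groups were GFP with PBS (n = 4), REV-ERBα with PBS (n = 5), GFP with C26 (n = 10) and REV-ERBα with C26 (n = 10). The mice's age and sex, and the day and hour when hearts were taken, are not known here.

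Glucose enters heart cells through GLUT1, encoded by Slc2a1 and present at the cell surface at all times, and GLUT4, encoded by Slc2a4, which insulin and contraction bring to the surface. Hexokinase traps the sugar as glucose 6-phosphate, phosphofructokinase commits it to glycolysis, and lactate dehydrogenase interconverts pyruvate and lactate. Each of these steps has forms encoded by different genes: the adult heart is known for GLUT4, hexokinase 2, the muscle form of phosphofructokinase and the H subunit of lactate dehydrogenase, while GLUT1, hexokinase 1, the platelet form and the A subunit are the more prominent forms in many other or growing tissues.

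The libraries held 3207497 to 16853646 counts, and 5 of them, 2 from GFP PBS mice and 3 from GFP C26 mice, were above 10000000. After the filter on low counts 12928 genes were tested, all 10 members among them, and the fewest counts of any member in any library were 69, for Slc2a1. The heart label was borne out by the 10 cardiomyocyte markers, none of which was at 0 and which together made up 44832 to 65056 CPM (counts scaled to the library's total with TMM factors) in each library. The adipocyte, hepatocyte and neutrophil markers summed to at most 483, 120.2 and 16.9 CPM. Atrial markers were high in 8 libraries, 1, 1, 3 and 3 of the GFP PBS, REV-ERBα PBS, GFP C26 and REV-ERBα C26 groups.

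Set on a scale per transcript length (CPM per kb, mean over the 29 libraries), the members spanned a wide range of levels. Ldhb, the H subunit of lactate dehydrogenase, was highest at 593 ± 47.4 CPM per kb (SD, n = 29), followed by Ldha, the A subunit, at 349.9 ± 24.97 and Pygm, the muscle form of glycogen phosphorylase, at 281 ± 21.3. The insulin-responsive transporter Slc2a4 was at 186 ± 25.6 CPM per kb and the muscle phosphofructokinase Pfkm at 176 ± 16.7. These neighbours were the least separated of the upper members, with Slc2a4 above Pfkm in 21 of 29 libraries. Hk2 was at 123 ± 22.0 CPM per kb, Hk1 at 68.4 ± 7.29, and Pfkfb2, which makes the activator of phosphofructokinase in the heart, at 31.6 ± 6.52. The lowest were Slc2a1 at 10.5 ± 1.96 and the platelet phosphofructokinase Pfkp at 7.62 ± 0.97 CPM per kb, with Slc2a1 above Pfkp in 28 of 29 libraries. Every other neighbouring pair of this order stood the same way in all 29 libraries.

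In GFP mice, C26 tumours went with a higher Slc2a1 and Hk1 and a lower Slc2a4, Hk2 and Pfkm in the heart. These 5 of the 10 members were called by edgeR's quasi-likelihood test at an adjusted p under 0.05, against 28.2% of all genes tested. The 2 higher members stand beside 14.2% of genes called higher and the 3 lower members beside 14.0% called lower. The median log2 change was -0.01 over the 10 members and -0.00 over all genes tested. Ldha, Ldhb, Pygm, Pfkp and Pfkfb2 were not called. In all 10 members the values of the GFP PBS and GFP C26 mice overlapped.

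**Figure D1:**
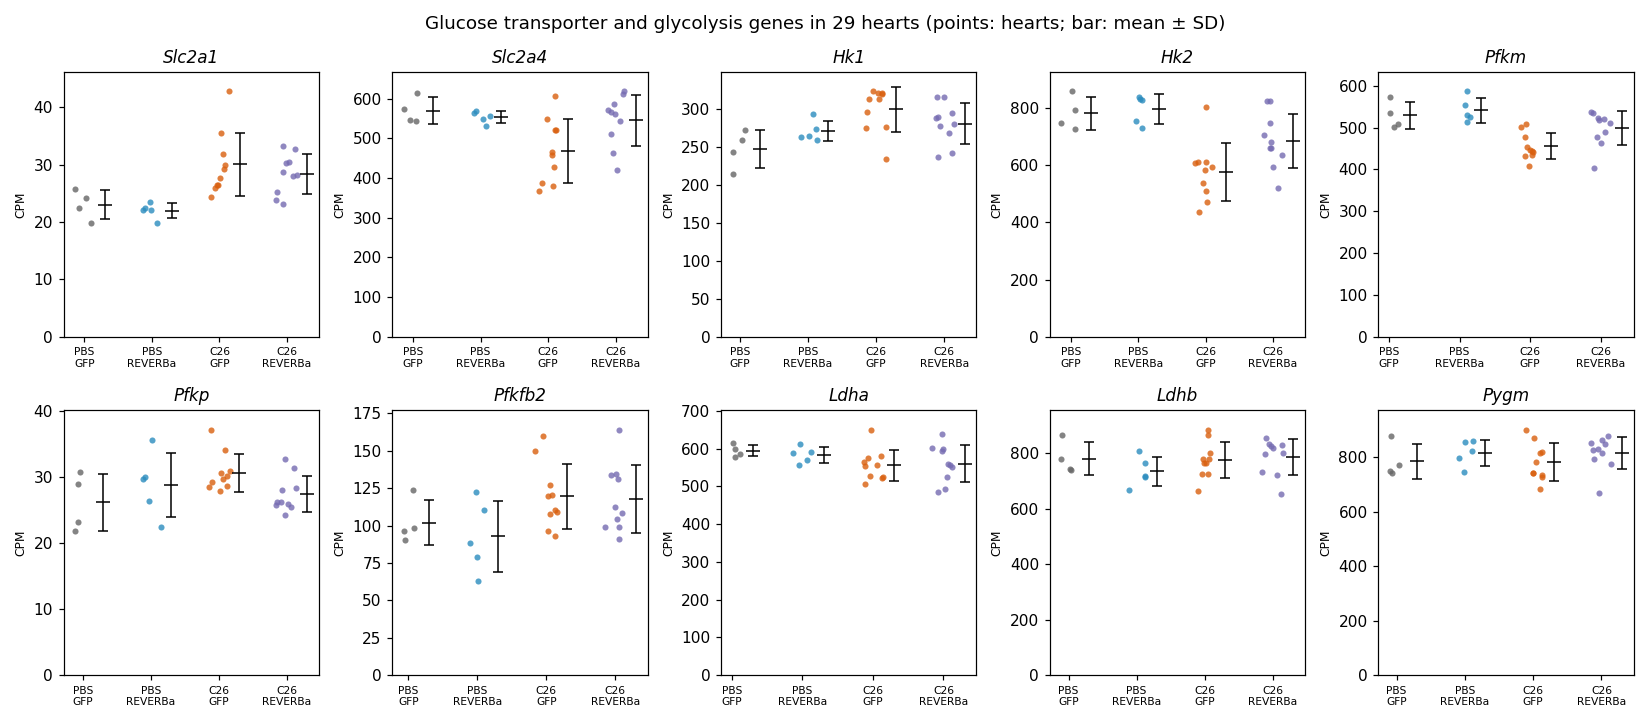
Level of each of the 10 genes (y axis, CPM from 0) in the 29 hearts by group (x axis); each point is 1 heart and the bar with error is the group mean ± SD. Slc2a1 and Hk1 sit higher, and Slc2a4, Hk2 and Pfkm lower, in most GFP C26 hearts than in the GFP PBS hearts, with the REV-ERBα C26 hearts in an overlapping range.

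The 4 called members with an entry in the RefSeq promoter table (GRCm38.p6), Slc2a1, Hk1, Hk2 and Pfkm, are given with the 250 bases before their counted start, 5′ to 3′ on the gene's own strand, to set the genes that rose beside those that fell. Slc2a4 is named only. Capitals mark each match, on either strand, to the hypoxia response element core ACGTG, the E-box CACGTG (which contains that core) or the glucocorticoid half-site TGTTCT; a MEF2 site and a REV-ERB half-site with its 5′ flank were also searched.
Slc2a1, chr4:119108495-119108744, plus strand: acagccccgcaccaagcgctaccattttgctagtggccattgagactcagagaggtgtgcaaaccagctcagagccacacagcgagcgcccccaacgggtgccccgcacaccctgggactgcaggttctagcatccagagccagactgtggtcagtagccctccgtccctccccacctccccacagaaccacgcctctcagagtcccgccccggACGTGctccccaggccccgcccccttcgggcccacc
Hk1, chr10:62379909-62380158, minus strand: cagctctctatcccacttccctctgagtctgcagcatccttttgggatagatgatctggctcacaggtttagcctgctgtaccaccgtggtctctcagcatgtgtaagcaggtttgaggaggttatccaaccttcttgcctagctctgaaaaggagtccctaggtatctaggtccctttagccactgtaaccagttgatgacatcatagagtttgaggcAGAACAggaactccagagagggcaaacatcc
Hk2, chr6:82774455-82774704, minus strand: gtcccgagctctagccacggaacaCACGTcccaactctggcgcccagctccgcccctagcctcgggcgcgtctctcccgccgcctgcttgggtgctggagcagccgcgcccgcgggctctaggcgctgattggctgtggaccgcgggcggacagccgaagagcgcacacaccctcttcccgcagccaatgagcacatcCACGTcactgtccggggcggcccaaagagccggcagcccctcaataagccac
Pfkm, chr15:98092339-98092588, plus strand: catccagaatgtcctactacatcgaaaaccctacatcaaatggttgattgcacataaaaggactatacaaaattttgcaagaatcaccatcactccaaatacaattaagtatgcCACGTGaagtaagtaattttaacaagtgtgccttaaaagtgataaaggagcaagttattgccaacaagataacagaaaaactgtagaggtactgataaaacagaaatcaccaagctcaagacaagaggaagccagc
Slc2a1, which rose in GFP C26 hearts, has 1 ACGTG core, and Hk2, which fell, has 2. Hk1 has 1 TGTTCT on its opposite strand. Pfkm has 1 CACGTG, which also counts as 2 matches to ACGTG over both strands. No MEF2 or REV-ERB match lies in these 4 windows. Among 32851 promoter windows of the same length in the table, 16.6% held ACGTG, 6.02% CACGTG, 16.1% TGTTCT, 0.103% the MEF2 site and 0.609% the REV-ERB site. Matches were not particular to called members: the window of Ldha, not called, holds 5 to ACGTG over both strands and 2 to CACGTG. These are matches of letters, and the table holds other starts for Hk1 and Pfkm. The window of the other Hk1 start holds no match, and those of the other Pfkm starts hold no CACGTG.

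Slc2a1 (NM_011400; mm10 chromosome 4, 119108745 to 119137329, plus strand) encodes GLUT1. Its levels were 19.8, 22.5, 24.1 and 25.7 CPM in the GFP PBS hearts and 19.8, 22.0, 22.1, 22.4 and 23.4 CPM in the REV-ERBα PBS hearts. In GFP C26 hearts they ran from 24.3 through a median of 28.5 to 42.7 CPM, and in REV-ERBα C26 hearts from 23.1 through 28.5 to 33.2 CPM. In 9 of 10 GFP C26 hearts Slc2a1 was above the highest GFP PBS heart. The mean rose from 23.0 ± 2.52 CPM (SD, n = 4) to 30.0 ± 5.54 (n = 10), a log2 change of 0.37 ± 0.12 (SE; edgeR adjusted p = 0.0173) or 28.9%. The call was lost without GFP PBS replicate 2 (0.35, adjusted p = 0.0581) and without replicate 3 (0.31, adjusted p = 0.0727).

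Slc2a4 (NM_009204; chromosome 11, 69942286 to 69948190, minus strand) encodes GLUT4. Its levels were 544, 547, 574 and 615 CPM in GFP PBS hearts and 530.4, 548, 556, 565 and 569 CPM in REV-ERBα PBS hearts. GFP C26 hearts ran from 367 through a median of 462 to 608 CPM, with 8 of 10 below the lowest GFP PBS heart. REV-ERBα C26 hearts ran from 420.3 through 564 to 618 CPM. Slc2a4 fell in GFP C26 mice by 0.28 on the log2 scale (SE 0.10; edgeR adjusted p = 0.0391), from a mean of 569.9 ± 33.1 (SD, n = 4) to 469 ± 80.1 CPM (n = 10). This was the least firm of the 5 calls: it was lost in 10 of the fits that each left out 1 library, those without any of the 4 GFP PBS hearts and without GFP C26 replicates 1, 2, 4, 5, 8 and 10, where the adjusted p reached 0.137.

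Hk1 (NM_010438; chromosome 10, 62268855 to 62379908, minus strand) encodes the hexokinase of brain, red cells and many other tissues. It was at 214, 243, 259 and 272 CPM in GFP PBS hearts and at 259, 262, 264, 274 and 293 CPM in REV-ERBα PBS hearts. GFP C26 hearts ran from 234 through a median of 313 to 322 CPM, with 9 of 10 above the highest GFP PBS heart, and REV-ERBα C26 hearts from 236 through 284 to 315 CPM. Hk1 rose by 0.28 ± 0.08 on the log2 scale (edgeR adjusted p = 0.0101), from a mean of 247 ± 24.9 (SD, n = 4) to 299 ± 29.1 CPM (n = 10). Without GFP PBS replicate 3 the change was 0.22 (adjusted p = 0.07).

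Hk2 (NM_013820; chromosome 6, 82725027 to 82774454, minus strand) encodes the hexokinase typical of insulin-sensitive muscle. It was at 727, 745, 792 and 857 CPM in GFP PBS hearts and at 728, 754, 826, 831 and 839 CPM in REV-ERBα PBS hearts. GFP C26 hearts ran from 437 through a median of 587 to 804 CPM, with 9 of 10 below the lowest GFP PBS heart. REV-ERBα C26 hearts ran from 519.6 through 671 to 824 CPM. Hk2 had the largest change of the called members: it fell by 0.44 on the log2 scale (SE 0.11; edgeR adjusted p = 0.00355), or by 26.2%, from a mean of 780.3 ± 57.9 (SD, n = 4) to 576 ± 101 CPM (n = 10). The call held in each of the 29 fits that left out 1 library.

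Pfkm (NM_001163488; chromosome 15, 98092589 to 98132447, plus strand) encodes the muscle form of phosphofructokinase. It overlaps Senp1 on the opposite strand, and because the strand setting of the counting is not given, reads of the overlap cannot be assigned with certainty. Pfkm was at 502, 509, 534 and 574 CPM in GFP PBS hearts and at 512, 524, 529.8, 554 and 586 CPM in REV-ERBα PBS hearts. GFP C26 hearts ran from 409 through a median of 445 to 508 CPM, 9 of 10 below the lowest GFP PBS heart, and REV-ERBα C26 hearts from 404 through 515 to 536 CPM. Pfkm fell by 0.22 on the log2 scale (SE 0.06; edgeR adjusted p = 0.0106), from 529.6 ± 32.3 (SD, n = 4) to 455 ± 31.4 CPM (n = 10). Without GFP PBS replicate 1 it was -0.18 (adjusted p = 0.0725).

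The other members of the phosphofructokinase step were not called by edgeR on all libraries for the tumour in GFP mice. Pfkp (NM_019703; chromosome 13, 6579874 to 6648771, minus strand, overlapping Pitrm1 on the other strand) was at 21.8 to 30.8 CPM in GFP PBS and 27.8 to 37.2 CPM in GFP C26 hearts, so that the log2 change was 0.24 ± 0.10 (edgeR adjusted p = 0.0784). Limma voom with sample weights called Pfkp (0.26, adjusted p = 0.0251), as did edgeR without GFP PBS replicate 4 (0.31, adjusted p = 0.0405). Pfkfb2 (NM_001162415; chromosome 1, 130689043 to 130729253, minus strand, overlapping Yod1 on the other strand) was at 90.0 to 124 CPM in GFP PBS and 92.8 to 160.1 CPM in GFP C26 hearts, so that the log2 change was 0.22 ± 0.15 (edgeR adjusted p = 0.295). For both genes 3 of 10 GFP C26 hearts were above the highest GFP PBS heart.

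Lactate dehydrogenase and glycogen phosphorylase also did not pass. Ldha (NM_010699; chromosome 7, 46845804 to 46855627, plus strand), which has 2 named pseudogenes and may share reads with them, was at 579 to 614 CPM in GFP PBS and 505 to 650.3 CPM in GFP C26 hearts, with 8 of 10 below the lowest GFP PBS heart. Its log2 change was -0.10 ± 0.06 (edgeR adjusted p = 0.268), with a 95% interval of -0.23 to 0.03. Ldhb (NM_008492; chromosome 6, 142490249 to 142507957, minus strand) was at 738 to 865 CPM and 666 to 885 CPM, a log2 change of -0.01 with an interval of -0.16 to 0.14 (edgeR adjusted p = 0.944). Pygm (NM_011224; chromosome 19, 6384429 to 6398459, plus strand), which releases glucose 1-phosphate from muscle glycogen, was at 741 to 876 CPM and 682 to 900.4 CPM, a log2 change of -0.00 with an interval of -0.15 to 0.14 (edgeR adjusted p = 0.971).

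Cell type markers moved with these changes. In GFP C26 against GFP PBS hearts, 6 of 10 cardiomyocyte markers were called lower and 1 higher, with a median log2 change of -0.29, and their summed level was 44832 to 57419 CPM against 57581 to 62049 CPM. Of the macrophage markers, 4 of 7 were called higher, and they summed to 273 to 385 CPM in GFP C26 hearts against 206 to 243 CPM. Endothelial markers summed to 1100 to 1296 CPM against 1225 to 1286 CPM, with 2 of 8 called higher and 1 lower. Fibroblast markers summed to 952 to 1435 CPM against 846 to 1059 CPM, with 2 of 6 called higher. Smooth muscle and pericyte markers summed to 346 to 753 CPM against 657 to 824 CPM, with 1 of 6 called lower. Of the skeletal muscle markers 2 of 11 were tested and both were called lower, while Myh2 and Myh4 were at 0 or 1 count in every library. The list, which includes the creatine kinase gene Ckm, summed to 2651 to 3207 CPM against 3718 to 4129 CPM. That sum was not split by gene and is not read as a level of skeletal muscle. Erythroid markers summed to 7.04 to 104 CPM (median 32.8) in GFP C26 hearts against 14.3 to 34.3 CPM (median 17.2). Hba-a1, Hba-a2 and Hbb-bs were at 0 or 1 count in every library, so this sum rests on the other genes of the list. Its part in the Hk1 call was not tested. In whole hearts, fewer cells of a type and less RNA per cell cannot be told apart. With the mean cardiomyocyte marker level of each library added to the edgeR fit, an alternative chosen after seeing the data, no member was called: Slc2a4 was at 0.10 (adjusted p = 0.626), Pfkm at 0.01 (adjusted p = 0.983) and Hk2 at -0.10 (adjusted p = 0.703), whereas Slc2a1 was at 0.50 (adjusted p = 0.0628) and Hk1 at 0.35 (adjusted p = 0.0636). The lower Slc2a4 and Pfkm were therefore not seen with that covariate, where their SE were 0.09 and 0.06, and 391 genes in all were then called. Leaving out the 5 libraries above 10000000 counts left Hk2 as the 1 member called, and leaving out the 8 libraries high in atrial markers ended the calls of Slc2a1 (0.32, edgeR adjusted p = 0.11) and Hk1 (0.27, edgeR adjusted p = 0.0678). The Slc2a4 call also ended without a filter on low counts (-0.27, edgeR adjusted p = 0.0617) and in a fit of the 2 groups alone (-0.28, edgeR adjusted p = 0.0792).

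**Figure D2:**
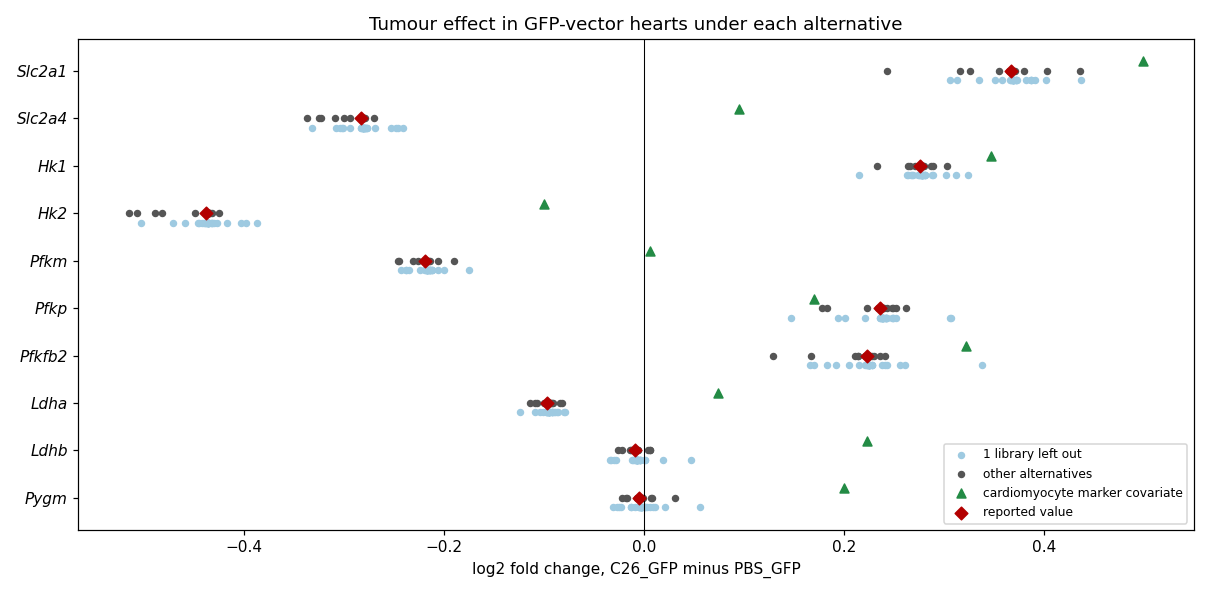
Log2 change from GFP PBS to GFP C26 hearts (x axis, log2 scale) for the 10 genes (y axis): red diamonds are the reported values, triangles the fit with the cardiomyocyte marker covariate, pale points the fits without 1 library and dark points the other alternatives. Slc2a1 and Hk1 stay above 0 in all of them; Slc2a4 and Pfkm cross to 0.10 and 0.01 with the cardiomyocyte marker covariate, and Hk2 is then at -0.10.

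Within a library, the balance between the forms of a step does not depend on scaling between libraries, so the forms were also compared as log2 ratios of CPM per kb. The ratios, here and below, reuse the values of the single-gene tests in the same hearts. The balance of the transporters shifted toward Slc2a1 and that of the hexokinases toward Hk1 in GFP C26 mice. Slc2a1 and Hk1 were called higher above and Slc2a4 and Hk2 lower, so these shifts are not separate support for those calls. Slc2a1 made up 3.65% to 4.64% of the summed Slc2a1 and Slc2a4 level in the 4 GFP PBS hearts and 5.13% to 8.05% in the 10 GFP C26 hearts, so the groups did not overlap. The log2 ratio of Slc2a1 to Slc2a4 was 0.67 ± 0.11 (SE) higher in GFP C26 hearts (two-sided exact permutation p = 0.001998, the smallest that 4 against 10 can give; adjusted over 16 ratio tests p = 0.00799). Hk2 made up 68.5% to 72.2% of the summed hexokinase level in GFP PBS and 52.8% to 65.1% in GFP C26 hearts, again without overlap. The log2 ratio of Hk2 to Hk1 was 0.51 ± 0.19 (SD, n = 10) in GFP C26 hearts and 1.235 ± 0.12 (n = 4) in GFP PBS hearts, a difference of -0.73 ± 0.09 (SE; exact permutation p = 0.001998; adjusted p = 0.00799).

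The phosphofructokinase genes differed in the same test and the lactate dehydrogenase genes did not pass it. Pfkp made up 3.12% to 4.39% of the summed Pfkp and Pfkm level in GFP PBS and 4.06% to 5.89% in GFP C26 hearts, with 8 of 10 above the highest GFP PBS heart. The log2 ratio was 0.45 ± 0.13 higher (exact permutation p = 0.00599; adjusted p = 0.0137). Ldha made up 36.3% to 38.9% of the summed lactate dehydrogenase level in GFP PBS and 34.4% to 41.2% in GFP C26 hearts, a log2 difference of -0.09 ± 0.05 (exact permutation p = 0.22; adjusted p = 0.323). Without GFP C26 replicate 1 the unadjusted exact permutation p was 0.028, at a difference of -0.12. Without the 5 libraries above 10000000 counts, 2 against 7 hearts remained and the exact test could not go below p = 0.0556: the differences were then 0.75 for Slc2a1 to Slc2a4 (p = 0.0556), -0.81 for Hk2 to Hk1 (p = 0.0556) and 0.40 for Pfkp to Pfkm (p = 0.111). The part of the lower cardiomyocyte marker sum in these ratios was not tested.

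**Figure D3:**
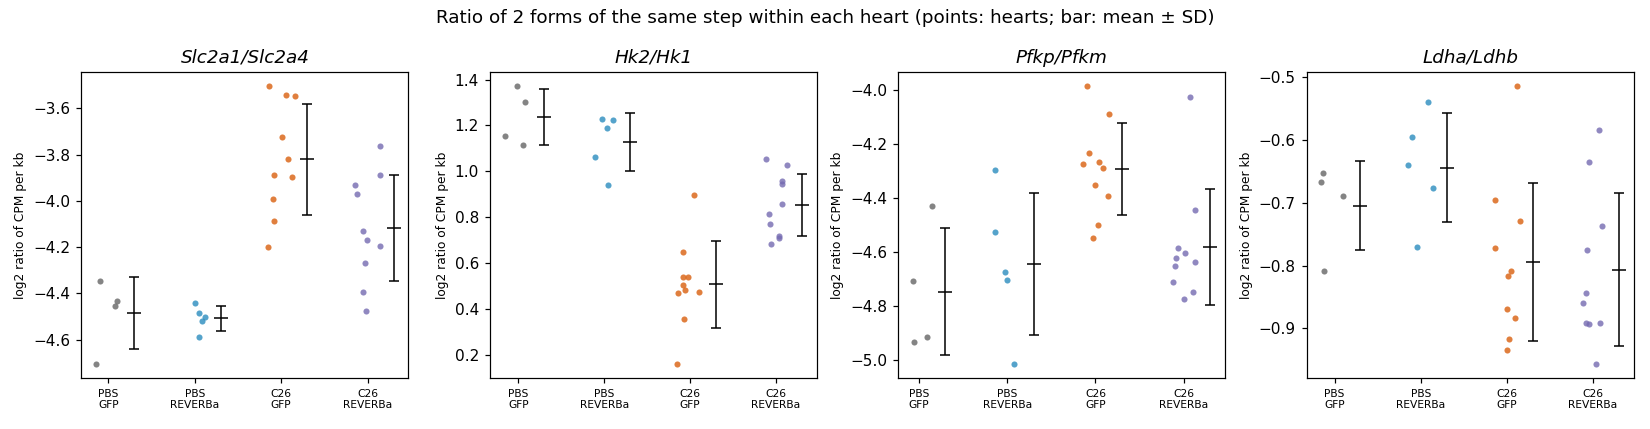
Log2 ratio of CPM per kb (y axis) of Slc2a1 to Slc2a4, Hk2 to Hk1, Pfkp to Pfkm and Ldha to Ldhb within each heart, by group (x axis); points are hearts and bars are group means ± SD. For the transporters and the hexokinases no GFP C26 heart lies within the range of the 4 GFP PBS hearts. For these same ratios the REV-ERBα C26 means lie between those of the GFP PBS and GFP C26 groups.

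Among tumour-bearing mice, the REV-ERBα vector was compared with GFP, using the same GFP C26 hearts as the tumour comparison above, so the 2 comparisons are not independent. None of the 10 members was called by edgeR, beside 7.20% of all genes. An unadjusted edgeR p under 0.05 was reached by 4 members and by 3136 of the 12928 genes tested. Slc2a4 was at a mean of 545 ± 63.6 CPM (SD, n = 10) with REV-ERBα and 469 ± 80.1 CPM (n = 10) with GFP, a log2 difference of 0.22 ± 0.08 (edgeR adjusted p = 0.0822). Hk2 was at 684 ± 95.4 and 576 ± 101 CPM, a difference of 0.25 ± 0.09 (edgeR adjusted p = 0.0683). Pfkm was at 498 ± 40.9 and 455 ± 31.4 CPM, a difference of 0.13 ± 0.05 (edgeR adjusted p = 0.0961). For each of these genes 9 of 10 REV-ERBα C26 hearts were above the median of the GFP C26 hearts. The same count held for Pygm, at a log2 difference of 0.06 (edgeR adjusted p = 0.514), so it was not particular to them. Pfkp was at 27.4 ± 2.73 and 30.7 ± 2.88 CPM, a difference of -0.16 ± 0.07 (edgeR adjusted p = 0.167).

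These differences lay close to the threshold. DESeq2 called Hk2 (adjusted p = 0.0488), and limma voom with sample weights called Slc2a4, Hk2 and Pfkm (adjusted p = 0.00743, 0.00905 and 0.022). Without GFP C26 replicate 6, edgeR called Slc2a4 (0.27, adjusted p = 0.0172), Hk2 (0.31, adjusted p = 0.00789) and Pfkm (0.15, adjusted p = 0.0402). Without REV-ERBα C26 replicate 9 it called the same 3 genes, at 0.25, 0.27 and 0.16 (adjusted p = 0.0257, 0.0377 and 0.0175). GFP C26 replicate 6 had the highest cardiomyocyte marker sum of its group at 57419 CPM, and REV-ERBα C26 replicate 9 had the lowest of its group at 47274 CPM together with the group's highest atrial and adipocyte sums, 3805 and 483 CPM. Across the groups the cardiomyocyte markers summed to 47274 to 61348 CPM with REV-ERBα and 44832 to 57419 CPM with GFP, with 1 of 10 called higher. The fit with that covariate called no member here. Macrophage markers summed to 223 to 319.9 CPM with REV-ERBα and 273 to 385 CPM with GFP, with 2 of 7 called lower, and their part in these differences was not tested.

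The remaining members had adjusted p of 0.345 or more in this comparison, some with intervals as wide as those of Slc2a4 and Hk2. Slc2a1 differed by -0.08, with a 95% interval of -0.25 to 0.09, and Hk1 by -0.09, with an interval of -0.21 to 0.03. The differences were 0.01 for Ldha (interval -0.09 to 0.11), 0.02 for Ldhb (-0.09 to 0.13), 0.06 for Pygm (-0.05 to 0.17) and -0.02 for Pfkfb2 (-0.26 to 0.21). The median over the members was 0.02 and over all genes tested 0.00.

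Of the 4 ratios within a library, 3 differed in mean between REV-ERBα C26 and GFP C26 hearts, with overlapping groups. Hk2 made up 64.4% ± 2.15 of the hexokinase level with REV-ERBα (SD, n = 10) and 58.7% ± 3.16 with GFP (n = 10), and the log2 ratio of Hk2 to Hk1 was 0.35 ± 0.07 higher (two-sided permutation p = 0.00038; adjusted p = 0.00608). Of the REV-ERBα C26 hearts, 4 of 10 were above the highest GFP C26 heart. The log2 ratio of Slc2a1 to Slc2a4 was lower by 0.30 (difference -0.30 ± 0.10, permutation p = 0.0125, adjusted p = 0.0249) and that of Pfkp to Pfkm by 0.29 (difference -0.29 ± 0.09, permutation p = 0.00488, adjusted p = 0.0137), with 8 of 10 REV-ERBα hearts below the lowest GFP C26 heart for the latter. The ratio of Ldha to Ldhb differed by -0.01 ± 0.06 (permutation p = 0.82).

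Without a tumour, the vector made no called difference. Between REV-ERBα PBS and GFP PBS hearts edgeR called 0 of 10 members, beside 0% of all genes. No member and 530 genes had an unadjusted p under 0.05; DESeq2 called 0 genes and limma voom 1, neither with a member among them. The members' log2 differences ran from -0.14 (Pfkfb2, interval -0.50 to 0.22) to 0.14 (Pfkp, interval -0.10 to 0.38), and those of Hk2 and Slc2a4 were 0.03 (interval -0.23 to 0.29) and -0.04 (-0.28 to 0.20). None of the 4 ratios passed, with adjusted permutation p of 0.323 or more in exact tests.

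In REV-ERBα mice the tumour was compared with PBS in hearts that shared no animal with the GFP comparison. One member of the 10, Slc2a1, was called, beside 7.23% of all genes: it rose by 0.37 ± 0.11 on the log2 scale (edgeR adjusted p = 0.0436), with 9 of 10 REV-ERBα C26 hearts above the highest REV-ERBα PBS heart. That call was lost in 10 of the fits that left out 1 library, each of the 5 REV-ERBα PBS replicates and REV-ERBα C26 replicates 3, 5, 6, 8 and 9, with adjusted p up to 0.13. Hk2 was at -0.22 ± 0.10 (adjusted p = 0.198), with all 10 REV-ERBα C26 hearts below the median of the REV-ERBα PBS hearts, Pfkm at -0.12 ± 0.06 (0.219) and Pfkfb2 at 0.34 ± 0.15 (0.146), all from edgeR. Slc2a4 was at -0.02, with an interval of -0.22 to 0.18, and Hk1 at 0.05, with an interval of -0.10 to 0.20. Macrophage markers, 4 of 7 called higher, summed to 223 to 319.9 CPM against 175 to 249 CPM, and 1 of 10 cardiomyocyte markers was called lower; their part in the Slc2a1 call was not tested, beyond the fit with the cardiomyocyte covariate, which called Slc2a1 and Ldhb. In exact permutation tests adjusted over the 16 ratio tests, the log2 ratio of Slc2a1 to Slc2a4 was 0.39 ± 0.08 higher (p = 0.00799), that of Hk2 to Hk1 0.27 lower (-0.27 ± 0.07, p = 0.0137), that of Ldha to Ldhb 0.16 lower (-0.16 ± 0.05, p = 0.0438) and that of Pfkp to Pfkm 0.06 higher (p = 0.757). For Ldha to Ldhb the unadjusted exact permutation p, 0.0246 on all hearts, was 0.0699 without REV-ERBα PBS replicate 3 and 0.0539 without replicate 5.

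The difference between the tumour changes of the REV-ERBα and GFP mice was itself tested as an interaction. edgeR called 0 of 10 members, beside 0% of all genes, with 2 members and 1357 genes at an unadjusted p under 0.05, and DESeq2 and limma voom called 9 and 4 genes, no member among them. The interaction was -0.22 ± 0.11 on the log2 scale for Hk1 (adjusted p = 0.474) and -0.30 ± 0.14 for Pfkp (adjusted p = 0.462). For Slc2a4 it was 0.26 with a 95% interval of -0.03 to 0.55, for Hk2 0.22 with -0.09 to 0.53, and for Slc2a1 0.00 with -0.32 to 0.33. The Slc2a4, Hk2 and Pfkm calls in GFP mice, and their absence in REV-ERBα mice, are therefore not shown to differ.

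**Figure D4:**
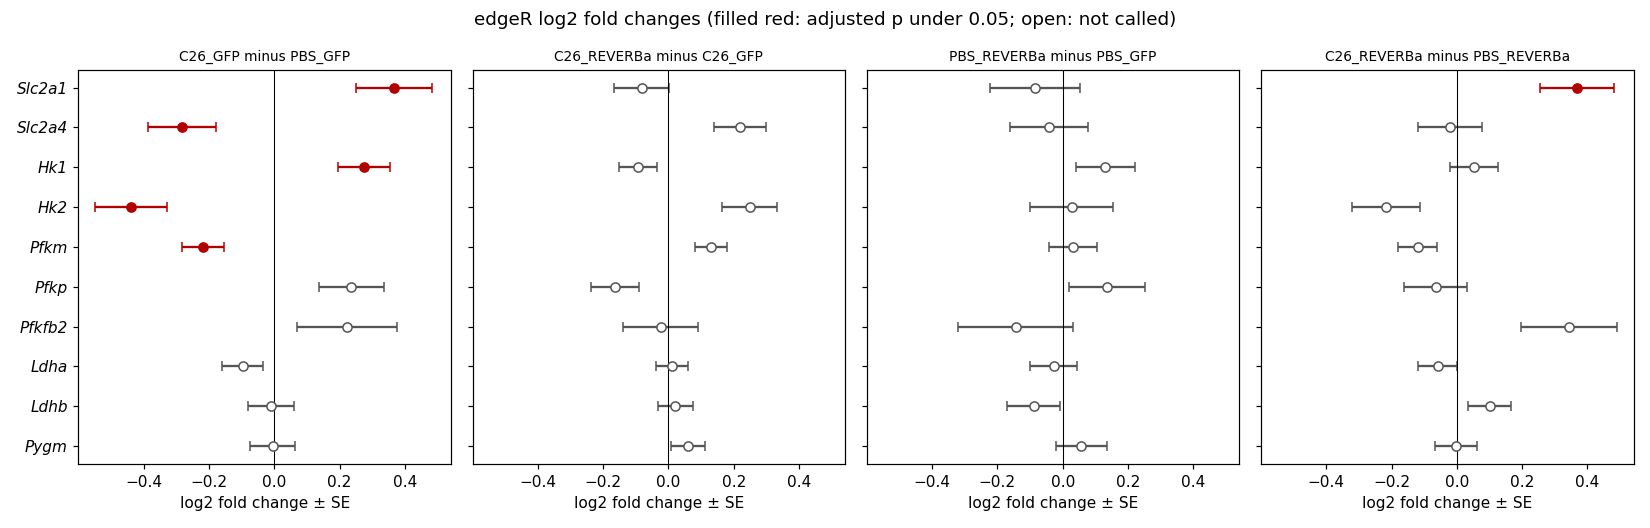
Log2 change ± SE (x axis) of each of the 10 genes (y axis) in the 4 comparisons of groups (panels); filled red points passed edgeR's adjusted p under 0.05 and open points did not. The 5 called genes in GFP mice and Slc2a1 in REV-ERBα mice are the only filled points.

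The rest of the pathway was read from 7 lists that hold no member, of which edgeR called 19 genes higher and 28 lower out of 115 tested in GFP C26 hearts, 40.9% beside 28.2% of all genes. Of 7 other glucose transporters tested, 2 were called higher and 1 lower in GFP C26 hearts: Slc5a1, a sodium-coupled glucose transporter, rose by 1.64 ± 0.37 on the log2 scale (edgeR adjusted p = 0.00149), Slc2a8, an intracellular transporter, rose by 0.34 ± 0.09, and Slc2a12 fell by 0.50. Slc2a10 was at 0.37 ± 0.20 (adjusted p = 0.161). Of 22 other glycolytic enzymes 7 were called lower and 1 higher, with a median log2 change of 0.01. Pkm, the pyruvate kinase of muscle, fell by 0.51 (adjusted p = 0.000136), Pgam2, the muscle phosphoglycerate mutase, by 0.43, Pgk1, phosphoglycerate kinase, by 0.42 and Eno3, the muscle enolase, by 0.62. Pfkfb3, an inducible relative of Pfkfb2, was the 1 called higher, at 1.10 ± 0.26, and is named after its value was seen. Of the other relatives, also named after their values were seen, Pfkfb1 was called lower, at -0.91 ± 0.24 (edgeR adjusted p = 0.00551). Pfkfb4 was at 0.12 ± 0.15 without passing.

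Genes downstream of glycolysis were mostly lower where called. Of 19 genes of lactate and pyruvate transport and pyruvate dehydrogenase, 9 were called lower and 2 higher in GFP C26 hearts, with a median log2 change of -0.32 beside -0.00 over all genes and -0.29 over the cardiomyocyte markers. With the cardiomyocyte marker covariate, again an alternative chosen after seeing the data, this list held 1 higher and 0 lower genes with a median of -0.15, and the other glycolytic enzymes 1 higher and 0 lower. The other glucose transporters and the glycogen genes then each held 1 higher and 0 lower. Of the genes of the pyruvate dehydrogenase complex, which feeds pyruvate to the citric acid cycle, Pdhb fell by 0.51 (edgeR adjusted p = 2.08e-05), Dld by 0.37 and Pdhx by 0.44, while Pdha1, the alpha subunit of its first enzyme, named after its value was seen, was at -0.09 ± 0.05 (edgeR adjusted p = 0.209). Slc16a3, the lactate exporter MCT4 of glycolytic cells, rose by 0.93 ± 0.17 (adjusted p = 0.000184). Of 23 glycogen genes 3 were higher and 4 lower, a share near the 28.2% of all genes: Gaa, the lysosomal glycogen-degrading glucosidase, rose by 0.51, while Gbe1, the branching enzyme, fell by 0.39, Ugp2, which makes UDP-glucose, by 0.34, and Nhlrc1, the ubiquitin ligase malin, by 0.49. The other called glycogen genes, named after their values were seen, were Gys1, glycogen synthase (0.33), Ppp1r3a (0.50) and Epm2a (-0.24).

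The counts of the next lists also stand beside 28.2% of all genes called in GFP C26 against GFP PBS hearts. Of 14 genes of GLUT4 trafficking and the TXNIP family, 2 were called higher and 3 lower in GFP C26 hearts. Aspscr1, the tether TUG that holds GLUT4 vesicles inside the cell, rose by 0.47 ± 0.09 and Vamp2, a vesicle SNARE, by 0.33 ± 0.08. Snap23, a SNARE of the cell surface, fell by 0.33, and Lnpep, the aminopeptidase IRAP that travels with GLUT4, by 0.57 (edgeR adjusted p = 0.00261). Of 14 pentose phosphate and hexosamine genes 4 were higher and 1 lower: Gfpt2, which starts hexosamine synthesis, rose by 1.68 ± 0.23 (edgeR adjusted p = 5.6e-06), Pgm3 by 0.56 and Uap1 by 0.35, later enzymes of the same route, and Taldo1, transaldolase, fell by 0.32. Of 16 transcription factors 5 were higher and 3 lower: Myc rose by 1.35 ± 0.31, Klf15 by 0.48 and Epas1, the hypoxia-inducible factor HIF-2α, by 0.42, and Nr3c1, the glucocorticoid receptor, fell by 0.52. With the cardiomyocyte marker covariate, the GLUT4 trafficking list held 1 higher and 1 lower gene. The pentose phosphate and hexosamine list then held 1 higher and 0 lower, and no transcription factor was called.

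**Figure D5:**
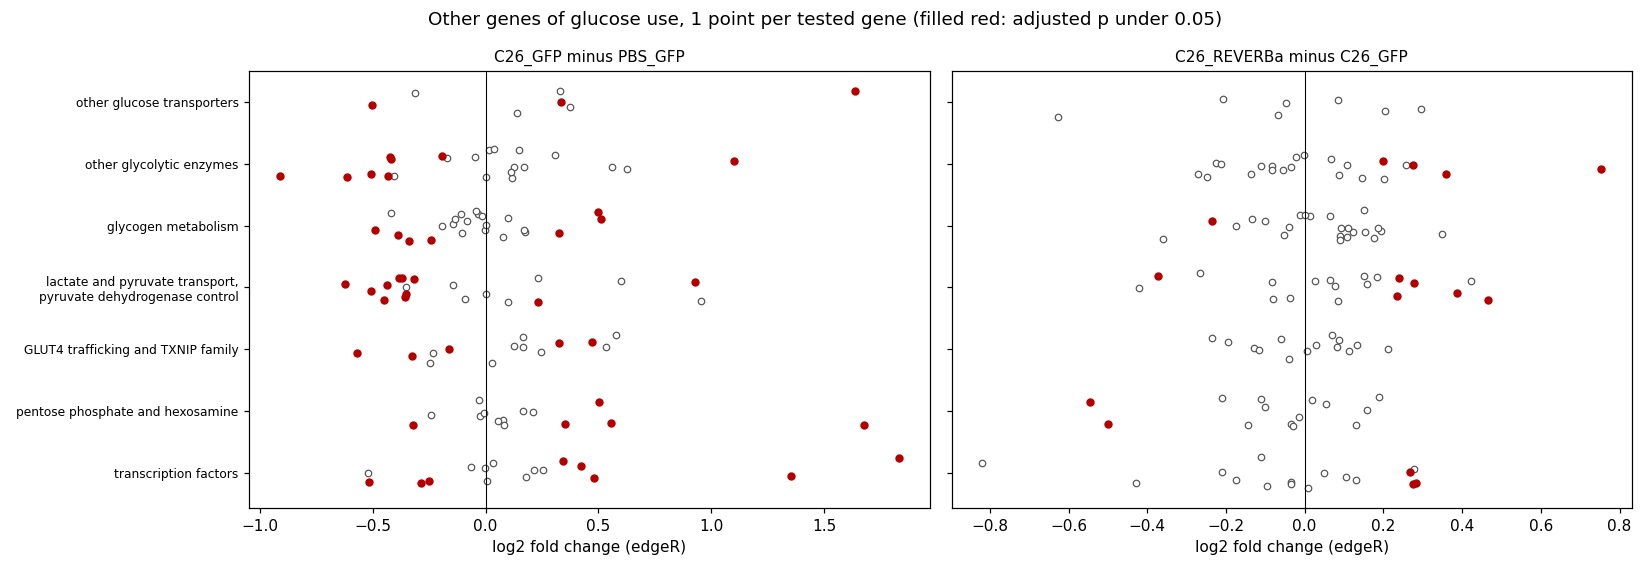
Log2 change of each tested gene (x axis, 1 point per gene) in the 7 pathway lists (y axis), for the tumour in GFP mice (left) and the vector in tumour-bearing mice (right, with its own x axis); filled red points passed edgeR's adjusted p under 0.05. In GFP C26 against GFP PBS hearts the lactate, pyruvate and pyruvate dehydrogenase list has 9 lower and 2 higher genes and the other glycolytic enzymes 7 lower and 1 higher.

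In REV-ERBα C26 against GFP C26 hearts edgeR called 12 of the 115 list genes higher and 4 lower, 13.9% beside 7.20% of all genes. The GFP C26 hearts are the same as in the tumour comparison. With the cardiomyocyte marker covariate, an alternative chosen after seeing the data, no gene of the 7 lists was called here. The other glycolytic enzymes held 4 higher genes and none lower: Pfkfb1 by 0.75 ± 0.19, Eno3 by 0.36, Pkm by 0.27 and Pgk1 by 0.20 (edgeR adjusted p = 0.0205, 0.0382, 0.0213 and 0.0457). The lactate, pyruvate and pyruvate dehydrogenase list held 5 higher and 1 lower, among them Dld at 0.28 ± 0.05 (edgeR adjusted p = 0.00655), Pdp1 at 0.39, Pdp2 at 0.47, both phosphatases that activate pyruvate dehydrogenase, and Pdhb at 0.24. Glycogen synthase Gys1, called higher by 0.33 in GFP C26 against GFP PBS hearts, was the 1 glycogen gene called. It was lower by 0.23 with REV-ERBα (edgeR adjusted p = 0.0257). Pygl, Gaa and Gbe1 were at 0.35, -0.17 and 0.18 without passing. No transporter and no GLUT4 trafficking gene passed: Slc5a1 was at -0.63 ± 0.24 (edgeR adjusted p = 0.106) and Aspscr1 at -0.20 ± 0.06 (edgeR adjusted p = 0.059). Pgm3 and Gfpt2 of the hexosamine route fell by 0.55 and 0.50, and 3 transcription factors rose: Mef2c, a regulator of muscle genes, by 0.27, Nr3c1 by 0.27 and Nr1d2, the relative of Nr1d1, by 0.28. Between the PBS groups, and in the interaction, no gene of the 7 lists was called.

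The genes most like each called member, by the correlation of log2 CPM after removing the group means over 29 libraries and among 10753 genes, were named as a description; the points share library depth and the cell makeup of each heart. For Slc2a4 they were Fhl2, a LIM protein of heart muscle (r = 0.86), and the cardiac troponin Tnni3 (r = 0.85), and for Hk2 again Fhl2 (r = 0.90) and Rap1gap2 (r = 0.89). For Pfkm they were Mdh1, cytosolic malate dehydrogenase (r = 0.85), and Myl2, the ventricular myosin light chain (r = 0.85). Tnni3 and Myl2 are among the cardiomyocyte markers above. For Slc2a1 they were Got1, cytosolic aspartate aminotransferase (r = 0.75), and St3gal5 (r = 0.72), and for Hk1 Inpp5a (r = 0.75) and Zfp428 (r = 0.75). Among the members themselves, Slc2a4 and Hk2 were the closest pair (r = 0.85), and Pfkp had r between -0.16 and 0.30 with the others.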

How the data were processed

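RNA of 29 hearts was sequenced from 50 to 100 ng of total RNA with a stranded kit, without selection of polyadenylated RNA, per the labels' protocols. The deposited table holds the authors' raw counts, 1 row per RefSeq gene; STAR 2.4.2a, DESeq2 1.24.0 and mm10 are named without their roles, per the submitters' processing notes. The counting tool and its strand setting were not given in the sources used here. Overlapping genes, and genes with near-identical copies such as Ldha, may have gained or lost reads. The table's starts were raised by 1. One per-sample column (1 in all) matched no label and was not used.

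The analysis used edgeR 4.0.16 and limma 3.58.1 under R 4.3.3: filterByExpr (minimum count 10, minimum total 15) kept 12928 of 20411 genes, TMM scaled the libraries, and 1 quasi-likelihood model with 4 group means was fitted to all 29. Genes were called at a Benjamini-Hochberg adjusted p under 0.05 over all genes tested. SE is the log2 change divided by the square root of F, and 95% intervals use the t quantile of the fit's degrees of freedom. Ratios used log2 of CPM per kb plus 0.1, with two-sided permutation tests, exact where a group had under 10 hearts and with 100000 resamples otherwise, adjusted over 16. DESeq2 1.42.0, sva 3.50.0 and limma voom served alternatives. The fits were tested on simulated data.

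Groups come from the labels' vector and treatment, and each library has its own animal number. The same replicate number did not pair hearts across groups: over 32 pairs of same-numbered hearts the correlation of their deviations ran from -0.35 to 0.28 (median -0.02), with 5 over 0.1. All 406 pairs of libraries differed by more than counting noise, with a chi-square of at least 2.62 times its degrees of freedom. With at least 3207497 counts per library, a gene near 10 CPM rests on few counts in the smallest.

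The members and gene lists were chosen with earlier results of these data known. All 10 members are named, with up to 4 genes of smallest p per pathway list in each of the first 2 comparisons, and the 2 genes most like each called member.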

Additional observations from a re-analysis of the deposited data

Results flagged for a closer look

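Each member's CPM and each ratio was examined in 56 groups for a heart far from the others of its group, a check in which chance marks about 1 in 20 groups, and 4 values stood apart. Hk2 in GFP C26 replicate 6 was the highest of its group at 804 CPM, inside the range of the GFP PBS hearts. Ldha in the same heart was also the highest of its group, at 650.3 CPM. This library had the highest cardiomyocyte marker sum of the GFP C26 group, 57419 CPM, and 14312672 counts. Pygm in REV-ERBα C26 replicate 9 was the lowest of its group at 669.9 CPM, and the log2 ratio of Pfkp to Pfkm in that heart was the highest, at -4.03. This library had the lowest cardiomyocyte marker sum of the REV-ERBα C26 group, 47274 CPM, and the highest atrial (3805 CPM), adipocyte (483 CPM) and neutrophil (16.9 CPM) marker sums. The part of these marker levels in the 4 values was not tested.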

How the results depend on the processing

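In GFP C26 against GFP PBS hearts, 3642 genes and 5 members were called. Without the libraries above 10000000 counts these became 1972 and 1, without the 8 libraries high in atrial markers the members became 3, and with the cardiomyocyte marker covariate the counts became 391 and 0. With that covariate Slc2a4 was at 0.10 ± 0.09 (edgeR adjusted p = 0.626) and Pfkm at 0.0061 ± 0.06 (adjusted p = 0.983), so neither showed a direction. Leaving out 1 heart at a time gave 2790 to 4138 genes and 2 to 5 members, with 2 members without GFP PBS replicate 3 and 3 without replicate 1 or 2.

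In REV-ERBα C26 against GFP C26 hearts, 931 genes and 0 members were called. The genes became 1772 with limma voom, 327 in a fit of the 2 groups alone, 1709 at an adjusted p under 0.1, 618 with libraries thinned to the smallest total and 8 with the cardiomyocyte covariate. The members became 1 with DESeq2, 3 with limma voom, 3 at an adjusted p under 0.1 and 2 without the libraries above 10000000 counts. Leaving out 1 heart gave 295 (without REV-ERBα C26 replicate 7) to 1778 genes (without REV-ERBα C26 replicate 9) and 0 to 3 members, with Hk2 called also without REV-ERBα C26 replicate 2. Without GFP C26 replicate 6 it was 1723 genes.

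Between the PBS groups, 0 genes became 1 with limma voom, 1 in a fit of the 2 groups alone and 0 to 1 with 1 heart left out. In REV-ERBα C26 against REV-ERBα PBS hearts, 935 genes became 1593 at an adjusted p under 0.1, 425 with the cardiomyocyte covariate and 476 to 1201 with 1 heart left out. The 1 member became 0 without a filter on low counts, without the libraries above 10000000 counts, without those high in atrial markers and with thinned libraries, 2 with the cardiomyocyte covariate (Slc2a1 and Ldhb) and 0 to 1 with 1 heart left out. For the interaction, 0 genes became 9 with DESeq2 and 4 with limma voom, and leaving out 1 heart gave 0 genes and 0 members.

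With the replicate number as a block, although the numbers do not pair the hearts, the members called became 3 in GFP C26 against GFP PBS, the genes 291 in REV-ERBα C26 against GFP C26, and 450 genes and 0 members in REV-ERBα C26 against REV-ERBα PBS.

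Without the libraries above 10000000 counts, the tumour difference in GFP mice was 0.75 for the ratio Slc2a1 to Slc2a4, -0.81 for Hk2 to Hk1 and 0.40 for Pfkp to Pfkm, in an exact test of too few hearts to pass. The Ldha to Ldhb difference in REV-ERBα mice was -0.14 (exact permutation p = 0.097) without the libraries high in atrial markers and -0.19 to -0.14 with 1 heart left out; in GFP mice that range was -0.12 to -0.072. The cause of these changes was not tested. Depth limits Slc2a1 and Pfkp most, at 69 or more counts per library.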

Other observations

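The tumour comparison in REV-ERBα mice called 10 of the 115 genes tested in the 7 pathway lists, 9 higher and 1 lower, a share of 8.70% beside 7.23% of all genes, and they are named after their values were seen. By edgeR, Gfpt2 of the hexosamine route rose by 1.43 on the log2 scale (adjusted p = 0.000207) and Uap1 of the same route by 0.31 (0.0178). Pfkfb3 rose by 1.15 (0.00433). Ppp1r3a, the glycogen-targeting subunit of protein phosphatase 1 in muscle, rose by 0.54 (0.00914) and Gaa by 0.26 (0.0345). Of the GLUT4 trafficking genes, Tbc1d4, the insulin-regulated AS160, rose by 0.33 (0.0193) and Stxbp3 by 0.29 (0.0495). Klf15, a glucocorticoid-responsive regulator of metabolism, rose by 0.50 (0.00994) and Myc by 1.004 (0.0496), and Slc16a1, the lactate transporter MCT1, fell by 0.29 (0.0376). In GFP mice the tumour comparison also called Bmal1, a core clock gene, higher by 1.83 ± 0.57 (0.0163) and Nr1d2 lower, at -0.29 ± 0.09 (0.0227). Nr1d1 itself was not called, at -0.52 ± 0.21 (edgeR adjusted p = 0.058). None of these genes was called in the interaction.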
